A study of Sus scrofa with 12 samples.

Results

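The genes described here were the kinases, scaffolds, small GTPases, receptors and transcription factors of mTOR, AMPK and insulin signalling, and the data were the m6A peaks that lay on their mRNAs in boar sperm. Of 52 gene symbols listed by name, 51 had a coding mRNA in the RefSeq annotation of Sscrofa11.1, out of 20674 genes with one, and PIK3R3 was skipped because the annotation held no gene of that symbol. A peak was given to a gene when it lay on the same strand as one of its mRNAs and overlapped an exon by at least 1 bp. At least 1 peak was found on 34 of the 51 genes in at least 1 sample (66.7%, all coding genes 56.6%). Over all samples, 142 peaks were found on them.

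Fresh sperm (Fs) and sperm that had been frozen and thawed (Fts), from 3 Duroc boars, were compared by MeRIP-seq, in which fragmented RNA is pulled down with an antibody against m6A and sequenced beside the untreated input RNA. Each ejaculate was divided, so that both groups came from the same boars. The fresh part was put into liquid nitrogen at once and kept for RNA extraction, and the other was cooled, taken up in a lactose and egg yolk extender, given glycerol, frozen in straws and thawed. Peak lists were held for 3 IP samples of each group. The sample labels gave the breed and the treatment but no age, and did not tie a replicate number to a boar. Both parts were exposed to liquid nitrogen, but only the straws were stored in it until use. The comparison therefore covers cooling, centrifugation, extender, glycerol, the way of freezing, storage and thawing together, which cannot be told apart.

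mTOR is a protein kinase that works in a pair of complexes, and mTORC1, the one that holds raptor, promotes protein synthesis when amino acids and insulin are present. AMPK is a kinase of a catalytic, a scaffold and a nucleotide-binding subunit that is switched on when ATP runs low, and in sperm it is known for its part in motility and membrane maintenance. Insulin and IGF1 act through their receptors, PI3K and AKT, which relieve the brake on mTORC1 and keep FOXO transcription factors out of the nucleus. Mature sperm transcribe little, and their mRNAs are mostly left from spermatogenesis.

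The writers of m6A act on the motif RRACH, in which the central A carries the methyl group. The exon regions printed here were chosen because they show which coding sequence the peaks of CAMKK2, TBC1D4, RPS6KB1, HIF1A, CAB39L and RPTOR delimit. They are the coding regions of at most 300 bases that were found in the most samples, with 1 region per gene. Regions found in equally many samples were ordered by their highest score, which chose RPTOR among the regions found in 2 samples. The bases are those of the reference genome Sscrofa11.1, written 5′ to 3′ on the strand of the mRNA, and capitals mark each RRACH match. In RRACH, R stands for A or G and H for A, C or T, which gives 12 forms, and only the sense strand was searched.
CAMKK2, exon 8 of 18, chr14:31344512-31344548, plus strand: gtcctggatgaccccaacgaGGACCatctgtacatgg
TBC1D4, exon 20 of 21, chr11:47549072-47549248, minus strand: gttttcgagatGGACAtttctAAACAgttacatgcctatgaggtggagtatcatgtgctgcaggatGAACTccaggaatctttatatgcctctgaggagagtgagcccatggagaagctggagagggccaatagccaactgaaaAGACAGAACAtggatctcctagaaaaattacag
RPS6KB1, exon 14 of 15, chr12:36154180-36154292, plus strand: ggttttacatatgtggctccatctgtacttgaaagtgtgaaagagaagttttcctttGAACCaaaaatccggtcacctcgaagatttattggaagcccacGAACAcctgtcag
HIF1A, exon 14 of 15, chr1:190672674-190672800, plus strand: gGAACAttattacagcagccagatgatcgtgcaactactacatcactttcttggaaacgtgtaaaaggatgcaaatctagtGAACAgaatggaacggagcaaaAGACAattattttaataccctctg
CAB39L, exon 5 of 10, chr11:18361514-18361632, plus strand: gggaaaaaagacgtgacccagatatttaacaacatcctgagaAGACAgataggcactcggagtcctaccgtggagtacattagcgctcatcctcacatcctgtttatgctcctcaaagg
RPTOR, exon 6 of 35, chr12:1838275-1838450, minus strand: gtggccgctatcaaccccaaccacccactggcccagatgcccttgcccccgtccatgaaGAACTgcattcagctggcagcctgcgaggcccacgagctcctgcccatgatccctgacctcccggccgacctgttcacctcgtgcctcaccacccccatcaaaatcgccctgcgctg
The regions hold 1, 5, 2, 3, 1 and 1 matches in that order, and the run of 10 capitals in TBC1D4 is a pair of adjacent matches. All 6 regions reach from one end of their exon to the other within 1 bp, so they name the exon and not the base that carries m6A.

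The value of each peak is its MACS score, which rises as the p-value of IP reads against the input reads of the same sample falls. The scale is not stated in the sources used here and was read as 10 times −log10 p, the form in which MACS has given it. On that scale the lowest score of each list, 3.02, is a p of 0.499, and the highest of any list, 3221.02, lies below 3233, the largest value that double-precision numbers allow. The lists then hold many peaks of little evidence, and 98 of the 142 peaks on the signalling genes (69.0%, all peaks 62.2%) scored under 20, a p of 0.0100. If the score were −log10 p itself, the lowest would be a p of 9.5e-04. A score rises with sequencing depth and with the level of the mRNA as well as with enrichment, and it has no replicate error of its own. Read totals of the libraries are not in the peak lists, so counting intervals were not computed. The 6 lists held 8015, 10378 and 10335 peaks in Fs and 9682, 11510 and 11982 peaks in Fts. A gene without a peak may carry m6A below the lowest score or may have had few reads. In bulk sperm RNA, less m6A per mRNA and fewer mRNA molecules cannot be told apart from peak lists.

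More peaks lay on the signalling genes as a whole after freezing and thawing, but not on each group of them by role. The 3 Fs samples had 16, 22 and 16 peaks and the 3 Fts samples 23, 34 and 31, so that each Fts sample had more peaks than each Fs sample. The mean was 18 ± 3.46 in Fs and 29.3 ± 5.69 in Fts (SD, n = 3 each), a ratio of 1.63. By role, the mean was lower in Fts on the mTOR complexes (3 in Fs, 2.33 in Fts) and the AMPK subunits (2.67, 2.33). On the TSC complex and small GTPases it was 1 in both groups. It was higher in Fts on mTORC1 targets and DDIT4 (2, 4.33), AMPK upstream kinases (1.67, 3.33) and receptors and their substrates (1.33, 1.67). The same held for PI3K, PDPK1 and AKT (3, 4.67) and the RabGAPs, SIRT1 and transcription factors (3.33, 9.67). The peak lists as a whole were 1.15 times as long in Fts. Per 1000 peaks of the list, the signalling genes held 2.00, 2.12 and 1.55 peaks in Fs and 2.38, 2.95 and 2.59 in Fts, again without overlap of the groups. No test was made on these sums, since the genes were listed with earlier results known.

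**Figure D1:**
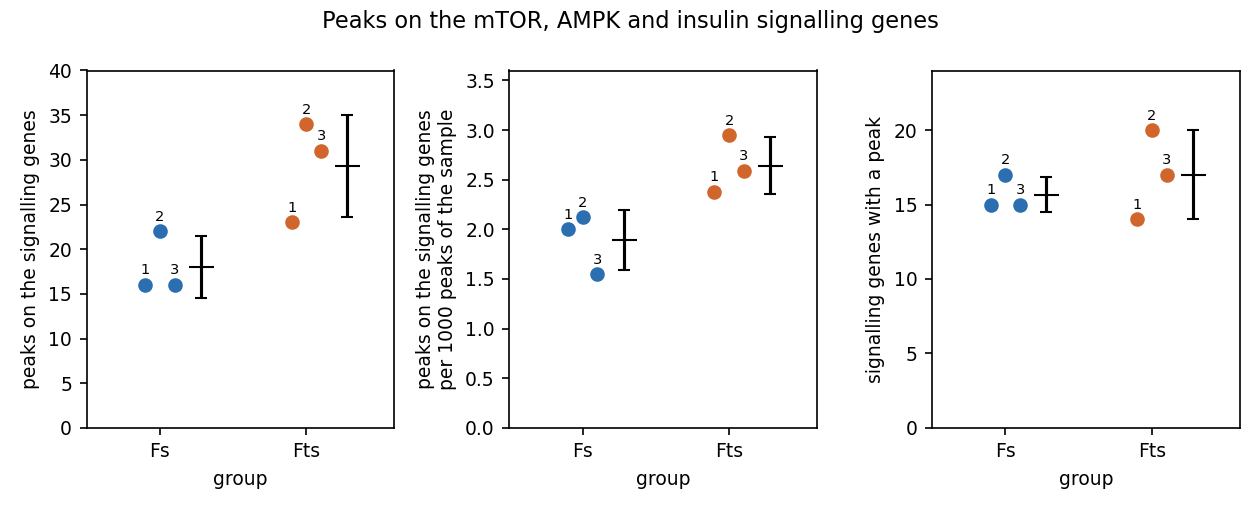
Peaks on the 51 signalling genes in each IP sample (points, with the replicate number), as a number, per 1000 peaks of the sample's list, and as the number of genes with at least 1 peak. Bars give the mean and SD of 3 samples; the first panel runs from 16 to 22 peaks in Fs and from 23 to 34 in Fts, whereas the number of genes with a peak overlaps between the groups.

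The gain lay in peaks per gene and less in the number of genes. Genes with a peak numbered 15, 17 and 15 in Fs and 14, 20 and 17 in Fts, and the groups overlapped. These were 29.4%, 33.3% and 29.4% of the 51 genes in Fs and 27.5%, 39.2% and 33.3% in Fts, beside 25.4% to 31.7% of all coding genes. Peaks in both groups were found on 15 genes, in Fts alone on 10 and in Fs alone on 9, and 8 of the 34 genes had a peak in a single sample. The same counts were not made over all genes, so nothing particular to the signalling genes can be read from them. The difference of the group means had a median of 0.333 peaks over the 34 genes and of 0 over the 11705 genes with a peak in any sample. Genes with a peak had a median mRNA length of 5127 nt, beside 3462 nt for those without.

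Peaks on 5 epithelial marker genes numbered 0, 1 and 2 in Fs and 5, 5 and 4 in Fts, with EPCAM and KRT5 at 0 in every sample and KRT8, a simple-epithelium keratin, at 0, 0 and 0 against 3, 4 and 2. KRT18 had 0, 0 and 1 peaks in Fs and 2, 1 and 1 in Fts, whereas CDH1, the epithelial cadherin, had 0, 1 and 1 in Fs and 0, 0 and 1 in Fts, so the higher sum in Fts lay mostly on KRT8. Leukocyte genes, 6 in number, had 0 to 3 peaks in Fs and 0 to 2 in Fts, on 3 of them (PTPRC, CD68 and ITGAM). Of 15 genes of sperm and late spermatids, 9 had a peak, with sums of 6 to 8 in Fs and 5 to 9 in Fts, and ZPBP was higher in Fts and ACR, the acrosomal protease, higher in Fs. PRM1, TNP1, ODF1, AKAP4, TSSK6 and SMCP had no peak, which says nothing of their level. The methods of the study state a detergent step against somatic cells. The part of other cell types in the results given here was not tested.

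A gene was called higher in a group when every sample of the group had more peaks on it than every sample of the other. For a single gene, this gives p = 0.1 in the two-sided exact permutation test of 3 against 3 samples, the smallest p the design allows. By this rule RRAGA, FOXO3 and HIF1A were higher in Fts, which is 3 of 34 genes or 8.82%, where 8.98% of the 11705 genes with a peak were called. MTOR alone was higher in Fs, 1 of 34 or 2.94%, where 5.36% of all genes with a peak were called. Both shares were near or below those of all genes. Under this rule, leaving out a sample can add calls but cannot undo one, so it does not test the 4 calls. The number higher in Fts was 7 without Fts replicate 1 and 5 without Fts replicate 2 or 3. The number higher in Fs was 2 without Fs replicate 1 or 2 and 3 without Fs replicate 3. By the highest score on each gene instead of the number of peaks, RRAGA, PRKAA2, FOXO3 and HIF1A were higher in Fts (11.8%, all genes 13.2%) and MTOR in Fs (2.94%, all genes 10.7%).

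**Figure D2:**
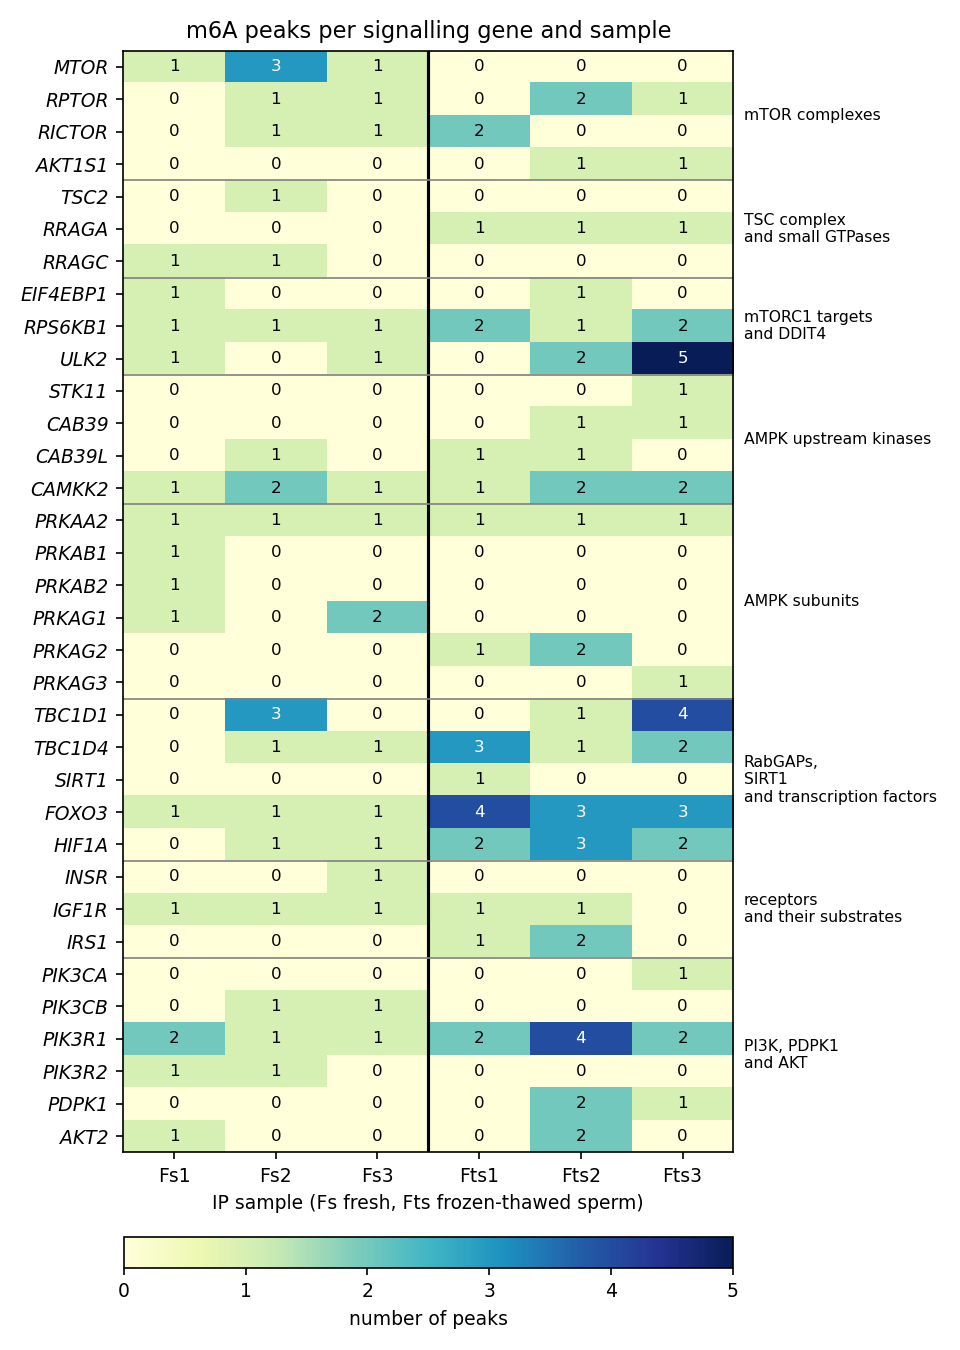
Number of m6A peaks on each of the 34 signalling genes with a peak (rows, grouped by role) in the 3 Fs and 3 Fts samples (columns); darker cells hold more peaks. RRAGA, FOXO3 and HIF1A are the rows in which all Fts cells exceed all Fs cells, MTOR is the row with the reverse, and ULK2 reaches the highest number, 5, in Fts replicate 3.

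Among the subunits of the mTOR complexes, MTOR itself, the catalytic kinase (chr6:71286989-71412913, minus strand, 58 exons), had peaks in fresh sperm only. It held 1, 3 and 1 peaks in Fs replicates 1 to 3 and 0, 0 and 0 in Fts. All scores were low, with highest scores of 7.62, 8.63 and 4.45, and from 4.45 to 8.63 the p-value of the peak itself would run from 0.359 to 0.137 on the scale used here. If the score were −log10 p itself, the p-value would run from 3.5e-05 to 2.3e-09. Exon 21 was covered in Fs replicates 1 and 2 (7.62 and 4.47), exon 16 in replicates 2 and 3 (5.24 and 4.45), and exon 4 in replicate 2 (8.63). No exon of MTOR was therefore covered in all Fs samples.

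RPTOR, which encodes raptor, the scaffold of mTORC1, had 0, 1 and 1 peaks in Fs and 0, 2 and 1 in Fts. Its highest scores were 0, 3100 and 5.9 in Fs and 0, 189.04 and 53.08 in Fts, where 0 stands for no peak. The score of 3100 belonged to a peak of 36 bp in exon 7 of a single sample, and 12 to 67 peaks per list had exactly this value, with 6 peaks in all above it. Exon 6, printed above, carried the scores 189.04 and 53.08 in Fts replicates 2 and 3 and no peak in the other 4 samples. RICTOR, the scaffold of mTORC2, had 0, 1 and 1 peaks in Fs and 2, 0 and 0 in Fts, on different exons in the groups (exon 21 in Fs, exons 12 and 13 in Fts). AKT1S1, which encodes an mTORC1 inhibitor that AKT phosphorylates, had 1 peak in each of 2 Fts samples, and MLST8, a subunit of both complexes, had none.

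The TSC complex is a brake on the GTPase Rheb, the direct activator of mTORC1, and Rag GTPases bring mTORC1 to the lysosome when amino acids are plentiful. RRAGA (chr1:203772063-203774580, minus strand), which encodes RagA, had 0, 0 and 0 peaks in Fs and 1, 1 and 1 in Fts. The peaks scored 6.33, 4.76 and 6.4, which would be p-values of 0.334 to 0.229 on the scale used here. If the score were −log10 p itself, they would be 1.7e-05 to 4.0e-07. Together the peaks covered 942 bp, chr1:203773192-203774133. This is the length of the coding sequence of this gene of 1 exon, and it holds 13 RRACH matches. RRAGC had a peak of 31 bp in Fs replicates 1 and 2 (49.46 and 12.54) and none in Fts. TSC2 had 1 peak, in Fs replicate 2, and TSC1, RHEB, RRAGB and RRAGD had none.

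Of the proteins that mTORC1 phosphorylates, S6 kinase 1 had a peak on its mRNA in every sample. RPS6KB1 (chr12:36111584-36159287, plus strand) had 1, 1 and 1 peaks in Fs and 2, 1 and 2 in Fts, and the groups overlapped. In its 3'UTR, chr12:36156247-36157075 scored 10.06, 8.99 and 28.16 in Fs and 4.07 and 23.9 in Fts replicates 1 and 3, with no peak in replicate 2. Exon 14, printed above, had no peak in Fs and scored 6.55, 38.37 and 83.05 in Fts. ULK2, an autophagy kinase, had 1, 0 and 1 peaks in Fs and 0, 2 and 5 in Fts, and 5 of its 8 regions were found in Fts replicate 3. EIF4EBP1, a repressor of cap-dependent translation, had 1 peak in each of 2 samples, 1 per group. EIF4E, RPS6KB2, ULK1 and DDIT4, a stress-induced inhibitor of mTORC1, had none.

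The kinases upstream of AMPK are LKB1, encoded by STK11, with its partners STRADA and CAB39, and the calcium-dependent CAMKK1 and CAMKK2. CAMKK2 (chr14:31307418-31366504, plus strand) had 1, 2 and 1 peaks in Fs and 1, 2 and 2 in Fts. Its exon 8, only 37 bp long, was covered in all 6 samples with scores of 162.29, 86.54 and 84.07 in Fs and 43.25, 165.7 and 73.23 in Fts. The means of 111 ± 44.5 and 94.1 ± 63.8 (SD, n = 3 each) did not differ beyond the spread (exact permutation p = 0.6). CAB39 had a peak in its 5'UTR in Fts replicates 2 and 3 alone (105.68 and 17.2). CAB39L, a paralog of CAB39, had a peak on exon 5 in Fs replicate 2 and in Fts replicates 1 and 2, with scores from 3.44 to 8.68. STK11 had 1 peak, in Fts replicate 3, and STRADA and CAMKK1 had none.

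Of the AMPK subunits, PRKAA2, a catalytic one, had 1 peak in each of the 6 samples. The peaks met in the region chr6:155687888-155688873 on the minus strand, which is a 3'UTR in an mRNA of the gene other than the longest coding one. Scores were 16.31, 26.85 and 9.18 in Fs and 63.37, 98.58 and 35.12 in Fts, so the lowest Fts value lay above the highest Fs value. The means were 17.4 ± 8.89 and 65.7 ± 31.8 (SD, n = 3 each, exact permutation p = 0.1). The scaffold genes PRKAB1 and PRKAB2 had 1 peak each, both in Fs replicate 1, and PRKAG1, a nucleotide-binding subunit, had 1 and 2 peaks in Fs replicates 1 and 3 and none in Fts. PRKAG2 had peaks in Fts replicates 1 and 2 alone, PRKAG3 in Fts replicate 3 alone, and PRKAA1, the other catalytic subunit, had none.

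The RabGAPs TBC1D1 and TBC1D4, which AKT and AMPK phosphorylate, the deacetylase SIRT1 and the transcription factors FOXO1, FOXO3, FOXO4 and HIF1A held 1, 6 and 3 peaks in Fs and 10, 8 and 11 in Fts. Their mean was 3.33 in Fs and 9.67 in Fts, the largest difference among the groups of genes by role. FOXO3, which turns on genes of stress resistance and autophagy when AKT is inactive, had the most peaks of any of the signalling genes. It lies at chr1:74626673-74760323 on the plus strand, with 4 exons. It held 1, 1 and 1 peaks in Fs and 4, 3 and 3 in Fts.

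The peaks of FOXO3 lay on different exons in fresh and in frozen-thawed sperm. In exon 2, where the coding sequence starts, the region chr1:74629560-74630133 had scores of 5.83, 3.47 and 10.87 in Fs and no peak in Fts. Exon 3, chr1:74737037-74738472, which holds the rest of the coding sequence, had no peak in Fs and scores of 99.07, 171.7 and 72.35 in Fts, a mean of 114 ± 51.4 (SD, n = 3). The peak covered the whole exon of 1436 bp, in which RRACH occurs 24 times. Exon 4, in the 3'UTR, carried a further peak at its start in each Fts sample, with scores of 6.56, 3.1 and 6.55. When peaks that meet at an exon junction were counted as 1, FOXO3 still had 1, 1 and 1 peaks in Fs and 3, 2 and 2 in Fts. The peak counted beside the joined one was weak in Fts replicates 2 and 3. It scored 4.2, further along the 3'UTR, in replicate 2 and 3.39, in the 5'UTR of another mRNA, in replicate 3.

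HIF1A, the oxygen-sensitive subunit of the hypoxia-inducible factor, whose translation mTORC1 promotes, lies at chr1:190625436-190673926 on the plus strand with 15 exons. It had 0, 1 and 1 peaks in Fs and 2, 3 and 2 in Fts. Exon 12, chr1:190668665-190669089, was covered in Fs replicate 2 alone among the fresh samples, with a score of 12.18, and in all Fts samples, with 147.88, 386.01 and 295.03. With a missing peak set to 0, the means were 4.06 ± 7.03 and 276 ± 120.2 (SD, n = 3 each), and the groups did not overlap. Exon 14, printed above, had peaks in Fts alone, with scores of 28.89, 23.08 and 4.69.

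TBC1D4 had 0, 1 and 1 peaks in Fs and 3, 1 and 2 in Fts, and its exon 20 was covered at scores of 3.74 to 11.79 in 2 samples of each group. TBC1D1 had 0, 3 and 0 peaks in Fs and 0, 1 and 4 in Fts, and no region of it was shared by the groups. SIRT1 had 1 peak, in Fts replicate 1, and neither FOXO1 nor FOXO4 had any.

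**Figure D3:**
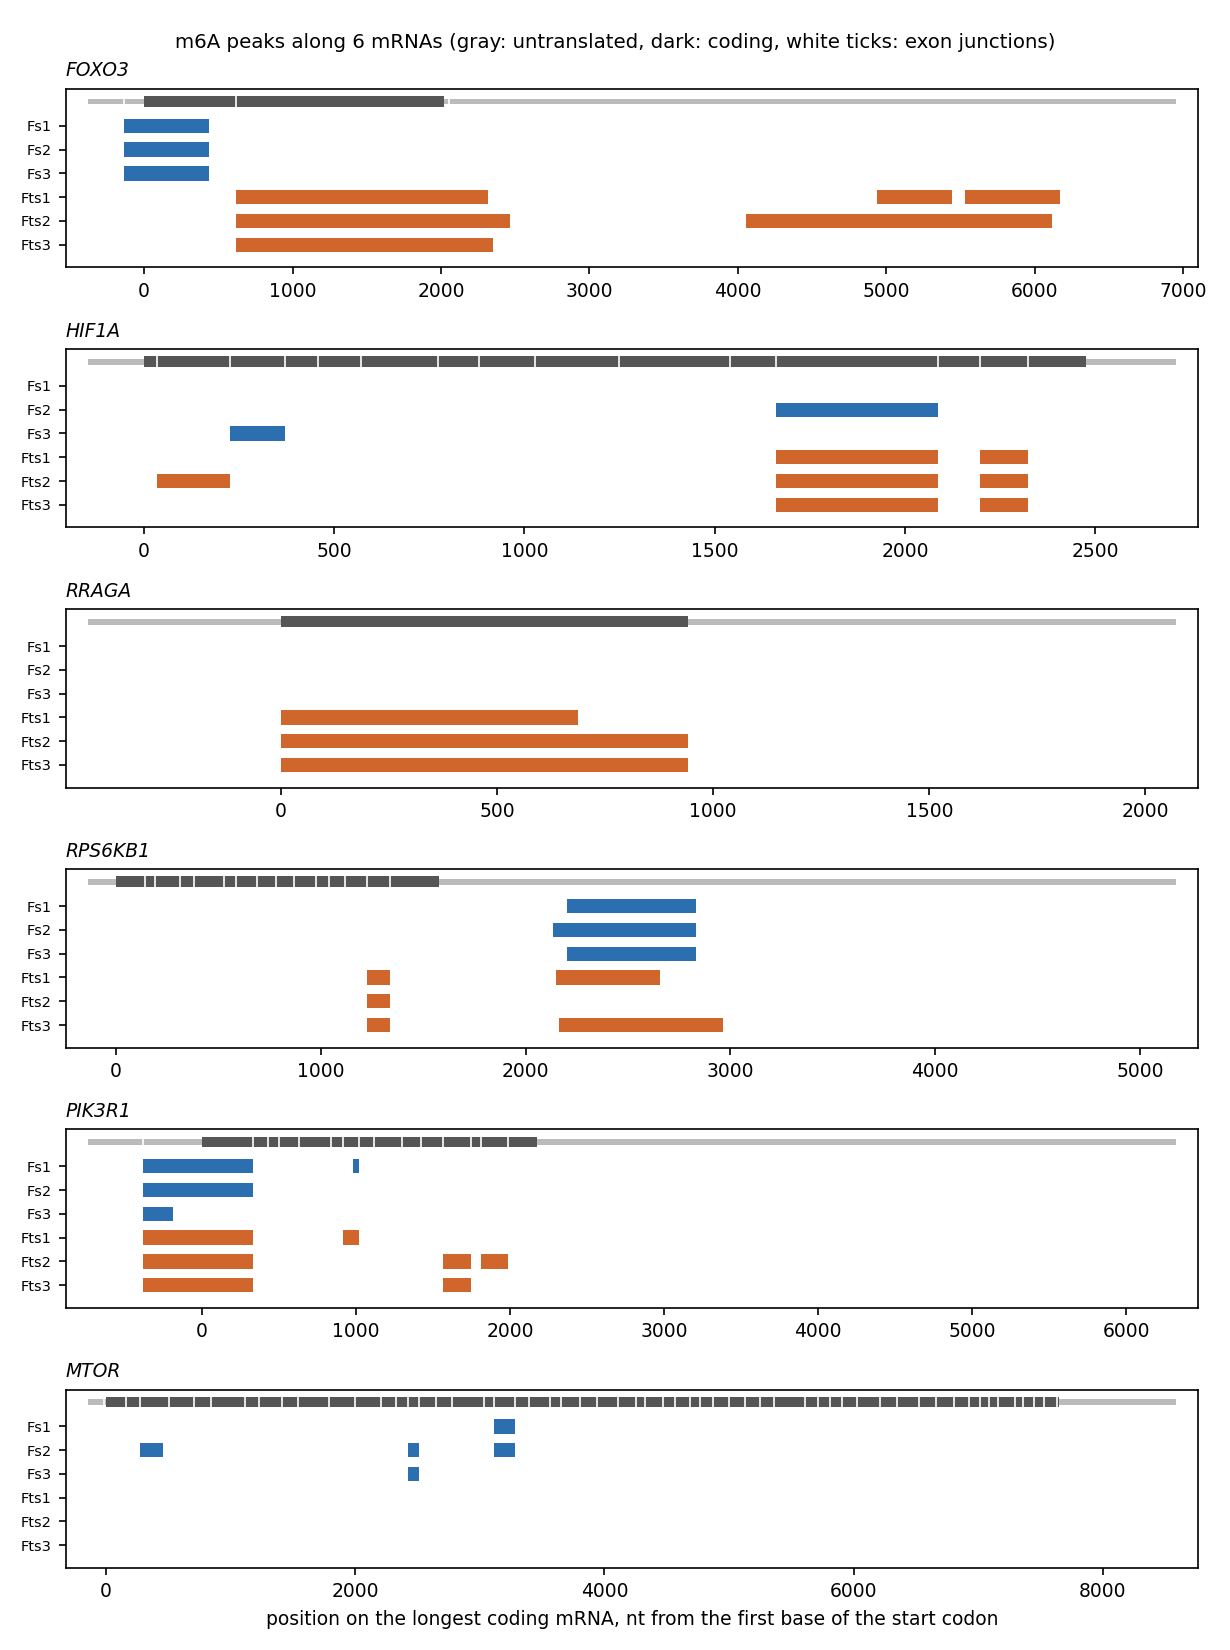
Position of the m6A peaks of each Fs (blue) and Fts (orange) sample along the longest coding mRNA of FOXO3, HIF1A, RRAGA, RPS6KB1, PIK3R1 and MTOR, in nt from the start codon, with untranslated parts thin, coding parts thick and exon junctions as white ticks. The FOXO3 peaks lie on exon 2 in the 3 Fs samples and on exons 3 and 4 in the 3 Fts samples, and those of HIF1A on exon 12 are found in 1 Fs and 3 Fts samples. Peaks in exons of other mRNAs of a gene are not drawn.

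The receptors for insulin and IGF1 and the substrates that dock PI3K to them had few peaks. IGF1R had 1, 1 and 1 peaks in Fs and 1, 1 and 0 in Fts, and 4 of them met in its 3'UTR with scores from 7.22 to 43.75. INSR had a single peak of 19 bp, in Fs replicate 3. IRS1 had 1 and 2 peaks in Fts replicates 1 and 2 and none in Fs, and IRS2 had none.

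PIK3R1, the regulatory subunit that binds phosphorylated receptors and substrates, carried the most peaks after FOXO3, with 2, 1 and 1 in Fs and 2, 4 and 2 in Fts. Exon 2, which holds the start codon of the longest mRNA (chr16:46446240-46446956, plus strand, 717 bp), was covered in all 6 samples. Its scores were 60.51, 26.0 and 10.42 in Fs and 12.78, 207.0 and 209.39 in Fts. The highest values were those of Fts replicates 2 and 3, but replicate 1 lay within the Fs range (exact permutation p = 0.3). AKT2, a kinase of insulin signalling, had a peak of its 5'UTR that scored 195.67 in Fs replicate 1 and 4.25 in Fts replicate 2, and no peak there in the other 4 samples. PIK3R2 and PIK3CB had peaks in 2 Fs samples each and none in Fts. PDPK1, which phosphorylates AKT, had peaks in 2 Fts samples and PIK3CA in 1, and AKT1 and PIK3CD had none.

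**Figure D4:**
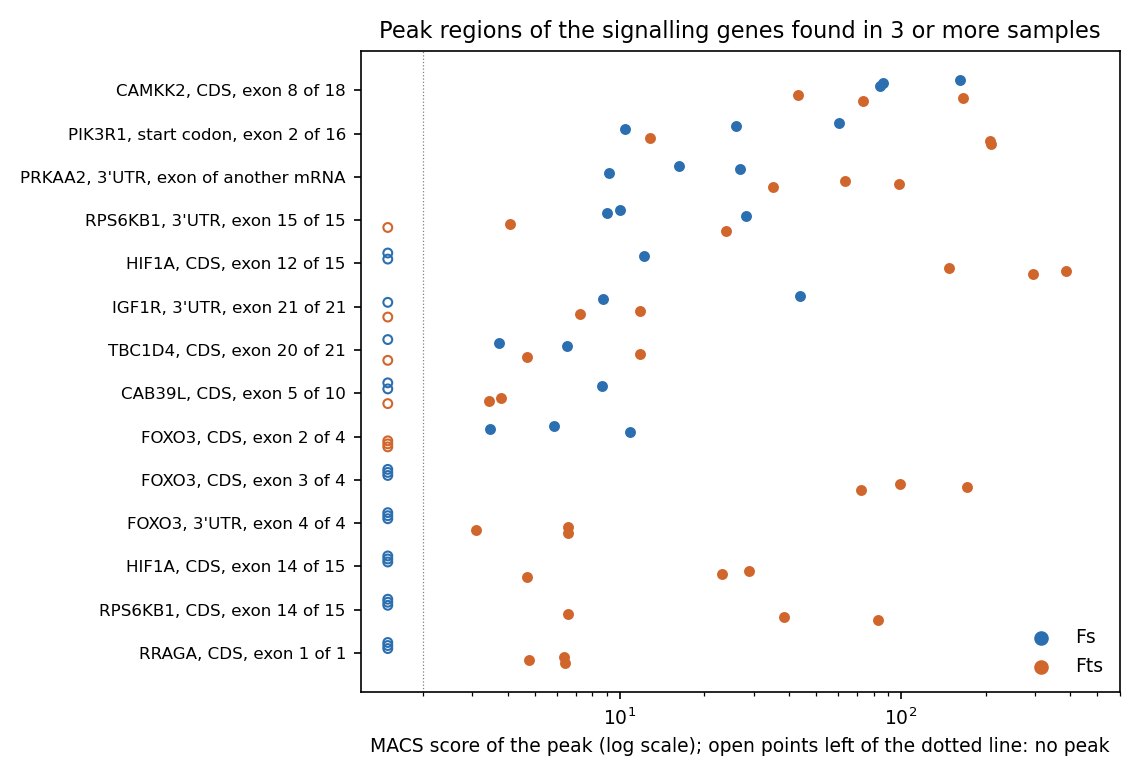
MACS score (log scale) of each Fs (blue) and Fts (orange) sample for the 14 peak regions of the signalling genes found in at least 3 samples; open points left of the dotted line stand for no peak. CAMKK2, PIK3R1 and PRKAA2 have a peak in all 6 samples, and the bottom 5 regions, on FOXO3, HIF1A, RPS6KB1 and RRAGA, have one in each Fts and no Fs sample.

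By region, the peaks of the 6 samples merged into 77 regions on the signalling genes. Of these, 41 (53.2%) were found in 1 sample, beside 47.6% of the 26220 regions on all genes, and 3 (3.90%, all genes 3.23%) in all 6 samples. A peak in every Fts and no Fs sample was found at 5 regions (6.49%, all genes 6.78%), and the reverse at 1, exon 2 of FOXO3 (1.30%, all genes 3.65%). By gene, 5 genes had a peak in all 6 samples (RPS6KB1, CAMKK2, PRKAA2, FOXO3 and PIK3R1), beside 13.5% of all genes with a peak. No mRNA exon of another gene, on either strand, overlapped any of the 77 regions. Some regions lay partly off the annotated exons of their own gene. The midpoint fell outside them for the regions of EIF4EBP1, PIK3CB and PRKAB2 and for the ULK2 region that scored 106.33 in Fts replicate 3. The PIK3CB region of 692 bp covered 67 and 65 exon bases in Fs replicates 2 and 3. None of the 14 regions found in at least 3 samples had a copy elsewhere in the genome of at least 95% identity over at least 90% of its span.

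Peaks of the signalling genes lay mostly in coding sequence. The midpoint of a peak fell in coding sequence for 62.3 ± 16.4% of peaks in Fs and 64.2 ± 4.65% in Fts (SD, n = 3 each), in the 3'UTR for 12.9 ± 6.28% and 18.7 ± 6.02%, and within 100 nt of the stop codon for 0% and 0.980%, the last from 1 peak. Their longest coding mRNAs were 42.9% coding sequence and 44.6% 3'UTR by length. The difference of the coding shares, 1.90 percentage points, was smaller than the spread of the Fs samples, which ranged from 43.8% to 75%, and it turned negative without Fs replicate 1 (−7.38) or Fts replicate 1 (−0.783). Over all genes the coding share was 64.4 ± 0.717% in Fs and 70.0 ± 0.487% in Fts, the 3'UTR share 7.89% and 6.51%, and the stop codon share 3.4% and 3.59%. The difference in 3'UTR share, Fts minus Fs, was −1.38 percentage points over all genes and 5.82 on the signalling genes, where the samples of the groups overlapped.

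**Figure D5:**
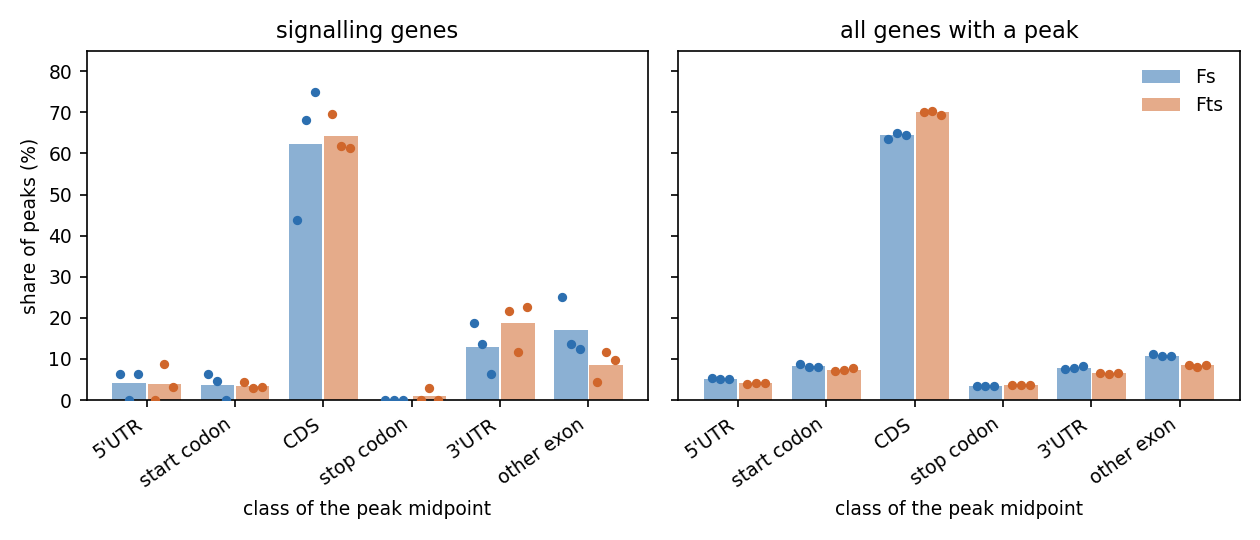
Share of peaks whose midpoint lay in each part of the mRNA, for the signalling genes (left) and for all genes with a peak (right); bars are means of 3 samples and points the samples. On the signalling genes the Fs and Fts points overlap for coding sequence (means of 62.3% and 64.2%), whereas over all genes they do not (64.4% and 70.0%).

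Exon ends set the ends of many peaks. At least 1 end lay within 1 bp of an exon end for 110 of the 142 peaks (77.5%, all genes 83.3%), and both ends did for 71 (50%, all genes 46.9%). By sample, both ends did for 31.2%, 36.4% and 43.8% in Fs and 56.5%, 61.8% and 54.8% in Fts. Over all genes this share was 39.3% to 40.6% in Fs and 51.1% to 54.5% in Fts, also without overlap of the groups. With peaks that meet at an exon junction counted as 1, the difference of the mean peak numbers was 8.67 instead of 11.3. In the central 100 bases of peaks at least that long, RRACH was present in 81 of 113 peaks of the signalling genes (71.7%, all genes 72.8%) and its form GGACT in 4 (3.54%, all genes 9.74%). By sample the RRACH share was 30.8%, 66.7% and 50% in Fs and 84.2%, 78.1% and 84.6% in Fts, over 8 to 32 peaks each, and the groups did not overlap. Over all genes it was 69.3% to 71.3% in Fs and 74.3% to 74.9% in Fts. Peaks of different samples on one region share its sequence, so these shares are a description of the peaks and not of independent sites. No windows outside peaks were searched, so whether RRACH is enriched in the peaks was not tested.

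Other genes of the same pathways were taken from a list of 73, of which 72 were annotated and 51 had a peak. Their peaks numbered 35, 49 and 41 in Fs and 51, 60 and 58 in Fts, without overlap of the groups. Of the 51 genes, 8 were higher in Fts (15.7%, all genes 8.98%) and 3 in Fs (5.88%, all genes 5.36%), with a median difference of 0 peaks. RPS6, the ribosomal protein that S6 kinase phosphorylates, had 0, 0 and 0 peaks in Fs and 4, 3 and 3 in Fts, with highest scores of 1384.52, 2349.13 and 2431.38. EEF2, the translation elongation factor, had 3, 0 and 0 against 5, 2 and 5, and the groups overlapped. PHLPP1, a phosphatase that acts on AKT, had 1, 1 and 1 against 4, 4 and 4. The genes higher in Fs were DEPDC5, CRTC2 and PFKFB2. These 3 were named after their values were seen.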

How the data were processed

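The authors trimmed paired-end reads with cutadapt 1.9.3, aligned them to susScr11 with HISAT2, called peaks with MACS for each IP sample against its own input, and kept the peaks on mRNAs with a program of their own. The deposited peak lists give the position, strand and MACS score of each peak, and the deposited score was not scaled between samples. Its scale is not stated in the sources used here and was read as 10 times −log10 p, as MACS has written it, so the lists reach down to weak peaks. The stated p-values of peaks and the description of many peaks as weak depend on this reading, and no other result does. A further deposited list holds 1928 sites of the authors' own comparison of Fts with Fs, found with diffReps, and was not used. Input libraries and reads were not analysed here. MACS calls no strand, so the strand of a peak follows the mRNA the authors gave it.

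Peaks were placed on RefSeq Annotation Release 106 of Sscrofa11.1 with scripts in Python 3.11.15, and overlaps were checked against bedtools 2.31.1 and tested on simulated data. All 61902 peaks lay within the sequences of the assembly. Midpoints were placed on the longest coding mRNA of each gene, with codon classes reaching 100 nt to each side. A region was the merged union of the peaks of the 6 samples on a gene. Sequences were read from the RefSeq genome with pyfaidx 0.9.0.4 and searched for copies with blastn 2.17.0. Samples were grouped by their labels, 3 per group, and nothing says which boar each came from, so a p-value measures the spread between these samples. Values of single genes and regions were compared by a two-sided exact permutation test, and shares called over all genes with a peak served as background.

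The genes and lists (73 other pathway genes, and markers of sperm, leukocytes and epithelium) were chosen with earlier results of these data known. Values in every sample were given for genes whose groups did not overlap in peak number, genes with a peak in all 6 samples, the 5 with the most peaks, the 5 with the highest score, and FOXO3 and HIF1A. Of the other pathway genes, at most the 3 with the largest difference of means were to be named. Sequence was shown for at most 6 coding regions of at most 300 bases. Alternatives were a score of at least 20 or 50, peaks joined across junctions, at least 50% of a peak on an exon, either strand, covered bases, peaks per 1000, codon classes of 200 nt, a replicate block and the omission of each sample. The highest score per gene was added after seeing the data.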

Additional observations from a re-analysis of the deposited data

How the results depend on the processing

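Of 66 values under 16 alternative settings, 50 stayed within the spread or within 1.5 times the main count, 12 moved and 4 changed sign. Leaving out 1 sample gave 3 to 7 genes higher in Fts, 1 to 3 higher in Fs, a difference in total peaks of 9 to 14.5 and 5 to 7 genes with a peak in all remaining samples. RRAGA, FOXO3, HIF1A and MTOR kept their calls in each of these. Under the rule used, leaving out a sample can only add calls, so this was fixed in advance. Without Fts replicate 1 there were 7 genes higher in Fts (AKT1S1, ULK2, CAB39 and PDPK1 were added), and without Fts replicate 2 or 3 there were 5. Without Fs replicate 1 or 2 there were 2 genes higher in Fs, and without Fs replicate 3 there were 3.

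At a score of at least 20, 0 genes were higher in Fs, the difference in total peaks was 5.33, and 1 gene had a peak in all 6 samples. At a score of at least 50, these values were 0, 4 and 0. FOXO3 and HIF1A kept their calls at both thresholds, RRAGA and MTOR at neither, as all their peaks score under 20. The difference in coding share was −10.9 percentage points at a score of at least 50, −2.91 with at least 50% of a peak on an exon, −7.38 without Fs replicate 1, −0.783 without Fts replicate 1, and −7.38 to 8.24 over all omissions, so its direction was not stable. The cause was not tested.

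The replicate numbers were not tied to boars, and deviations of samples of equal number correlated at 0.0103, −0.0143 and 0.0129. With the replicate block, 3 genes were higher in Fts and 1 in Fs, the same genes as without it, and 3 pairs cannot give a p under 0.25. The block compares only samples of equal number, so it could add genes but could not drop a called one. Each list holds peaks of a score of 3.02 or more, so weaker enrichment is not seen, and scores were not adjusted for the depth of the libraries.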
